A study of Mus musculus with 12 samples.

Results

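Mouse embryonic fibroblasts that received no reprogramming factors, cultured in embryonic stem cell medium, were compared between day 8 and day 4 after a first virus infection. The comparison rests on 6 arrays of 12 in the series, all those whose titles carry the tag Group2, with 3 arrays at each day. Groups rest on the titles and the time field, since the free-text description is identical on all 12 arrays and names a pre-iPSC line and a day other than 4 or 8. The fibroblasts came from an OG2 by 129/sv cross. OG2 mice carry a green fluorescent reporter driven by the Oct4 promoter. Cells were infected with a retrovirus carrying microRNA cluster B, with one carrying microRNA cluster C, or with a blank control virus, and the day of the first of 2 infections was day 0. Medium was changed daily, and RNA was taken with Trizol after feeder cells had been removed, per the labels. The other 6 arrays had the same viruses and days with SKO added, read here as Sox2, Klf4 and Pou5f1 (Oct4), the usual reprogramming factors; the labels give the letters alone. Each combination of virus and day had 1 array, and day 8 was set against day 4 within each virus, giving 3 pairs. Nothing in the labels says that the pairs came from separate cell preparations or that days 4 and 8 of a pair were sister cultures. The p-values therefore measure only how unequal the day change was between the viruses within an arm. That spread was estimated over all 12 arrays, the arm with SKO included, and it holds any effect of a virus on the day change. Every group of this comparison had received a virus, and none was left uninfected.

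Fibroblasts build and remodel the collagen-rich matrix of connective tissue, and they secrete growth factors, binding proteins and antagonists that tune signals to neighbouring cells. In culture they first divide under serum growth factors, and as they become dense they slow down and lay down more matrix. The interferon response is a separate programme in which sensing of foreign nucleic acid switches on antiviral genes through transcription factors such as Stat2 and Irf9. Embryonic stem cell medium usually contains serum and leukaemia inhibitory factor (LIF), which signals through Stat3; the composition used here is not given in the labels.

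All values are deposited log2 expression values, differences are day 8 minus day 4 in log2 units averaged over the 3 pairs, and a gene was called when its limma p, adjusted by Benjamini-Hochberg over 19938 genes, was under 0.05. Of the genes tested, 807 were higher at day 8 (4.05%) and 923 were lower (4.63%), and all 1730 (8.68%) had the same sign in the 3 pairs. The median rise among called genes was 0.63 and the median fall -0.54, while the median over all genes was 0.01. On 3 arrays against 3, the days did not overlap in 2849 genes with day 8 above (14.3%) and 3143 with day 8 below (15.8%). At an unadjusted limma p under 0.05, 2317 of the 19938 genes were higher at day 8 and 2603 lower. Unadjusted counts given for lists below are to be read against these. A difference of at least 1 log2 unit was seen in 135 of the higher and 47 of the lower genes, so the largest differences were mostly rises. A principal component analysis of the 6 arrays used only genes whose mean over all 12 arrays was above that of the median gene. Its first component held 65.8% of the variance and separated the days. With 1 pair left out, between 313 and 356 genes were higher and between 213 and 283 lower. Array medians lay between 4.98 and 5.07, and no array was a copy of another. Because 1 extract can hold several cell types, fewer cells of a type and less RNA per cell cannot be told apart in these data. Genes described here were taken from 45 lists of known function, of which 1164 of 1270 members were measured.

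**Figure D1:**
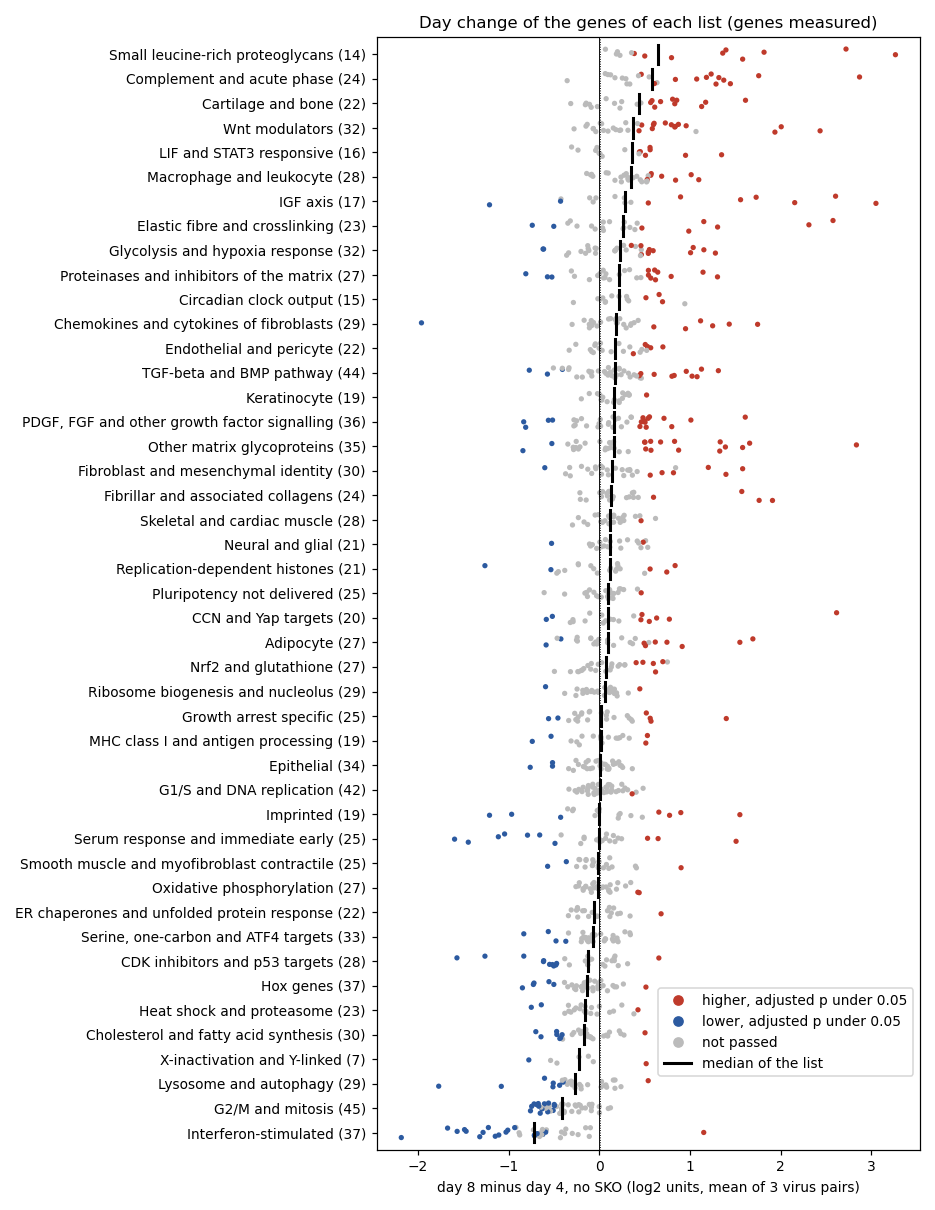
Day change without SKO (day 8 minus day 4, log2 units, mean of 3 virus pairs) for every measured gene of the 45 lists, ordered by the median of the list. Each point is 1 gene, red or blue where the adjusted p was under 0.05, and the black bar is the list's median, from 0.65 for small leucine-rich proteoglycans to -0.71 for interferon-stimulated genes.

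The matrix genes that rose most were small leucine-rich proteoglycans, secreted proteins that sit on collagen fibrils and set their diameter and spacing. Of 14 measured, 9 were higher and 0 lower (also 0 at an unadjusted limma p under 0.05), with a median of 0.65, and 7 were called whichever of the 3 pairs was left out. Epyc, which encodes epiphycan of cartilage, was measured at 3.84, 3.88 and 3.82 on the day 4 arrays (control, cluster B and cluster C virus, in this order throughout) and at 7.14, 6.89 and 7.31 on the day 8 arrays. Its day 4 values lay close to the lower quartile of the arrays, 3.54 to 3.68, and the day 8 values lay far above it. The difference of 3.27 (SE 0.14, adjusted p = 9.85e-06) is given without a fold, since the day 4 level was so near the bottom of the scale. Kera (keratocan, of the corneal stroma) went from 4.91, 4.31 and 4.67 to 7.31, 7.32 and 7.43, a rise of 2.72 (SE 0.16, adjusted p = 3.61e-05), again with no overlap of the days. The more widely expressed members rose by less from a higher level. Fmod (fibromodulin) rose by 1.82 (SE 0.11), Lum (lumican) by 1.58 (SE 0.10), Dcn (decorin) by 1.40 (SE 0.12) and Aspn (asporin) by 1.36 (SE 0.11). Podn, Ogn and Bgn were called at 0.80, 0.50 and 0.39. Omd, Nyx and Optc, at 0.20, 0.19 and 0.07, were not called.

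Collagen genes were split between a few clear rises and many that were not called. Col1a1, the main chain of type I collagen, was at 12.88, 12.94 and 12.90 on day 4 and at 12.92, 12.87 and 13.01 on day 8, near the top of the scale, and its difference of 0.02 (SE 0.11) was not called. Of 24 measured collagen genes, 4 were higher (16.7%) and 0 lower (10 and 0 at an unadjusted limma p under 0.05), with a median of 0.13. With quantile normalization 7 were higher, with a mean-variance trend 8 and with dim genes left out 9. The 4 were Col14a1 (1.91, SE 0.09) and Col15a1 (1.57, SE 0.10), whose products bind to fibrils or basement membranes, and Col8a2 (1.76, SE 0.10) and Col8a1 (0.60), the short-chain collagens of Descemet's membrane and vessel walls. Col6a3, Col5a2 and Col4a5 had the lowest differences, from -0.14 to -0.21, and were not called.

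Of 23 elastic fibre and crosslinking genes, 6 were higher, 2 lower and 15 not called. Eln, which encodes tropoelastin, was at 6.36, 6.61 and 6.81 on day 4 and at 9.25, 9.13 and 9.14 on day 8, a rise of 2.58 (SE 0.14, adjusted p = 2.7e-05). Mfap4, a microfibril-associated glycoprotein, went from 5.70, 5.73 and 5.91 to 8.12, 8.00 and 8.16, a rise of 2.31 (SE 0.11). The days were well apart on all arrays for both genes. Mfap5 (1.31, SE 0.10) and Mfap2 (1.15), both of microfibrils, and Ltbp2 and Ltbp4 (0.99 and 0.47), which help fibre assembly, were also called. The lower genes were Efemp1 (-0.74, SE 0.09) and Ltbp1 (-0.50), a binding protein of latent TGF-beta. Without 1 pair, 5 were higher and 1 lower in each case.

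Among 35 other matrix genes, 14 were higher and 2 lower. Comp, which encodes a pentameric thrombospondin of cartilage and tendon, went from 5.17, 5.19 and 5.34 to 8.13, 8.05 and 8.03, a rise of 2.84 (SE 0.15, adjusted p = 2.27e-05). Postn (periostin) rose by 1.66 (SE 0.11) and Has2, a hyaluronan synthase, by 1.58 (SE 0.11). The fallers were Lama5 (-0.84, SE 0.10) and Hspg2 (-0.52), both of basement membranes. The list gave 10, 8 and 9 higher genes without the control, cluster B and cluster C pair. Secreted proteins outside these lists were among the largest rises too. Dpt (dermatopontin, a binder of decorin) rose by 2.20 (SE 0.11), Egfl6 by 2.71 (SE 0.13) and Clec11a (osteolectin, a bone growth factor) by 2.33 (SE 0.12). Ecrg4, a secreted peptide precursor, was at 6.04, 6.08 and 6.08 on day 4 and at 8.49, 8.70 and 8.70 on day 8, a rise of 2.56 (SE 0.10). Bdkrb1, the inducible bradykinin receptor, rose by 2.34 with a wider error (SE 0.36), its day 4 values being 4.42, 3.16 and 4.53.

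Enzymes that cut the matrix moved in both directions. Of 27 proteinases and inhibitors, 9 were higher and 3 lower, and the higher count was 3 whichever pair was left out. Timp3, an inhibitor of metalloproteinases bound to matrix, rose by 1.30 (SE 0.10) and Mmp3, stromelysin, by 1.14 (SE 0.15). Plat, the tissue plasminogen activator, fell by 0.81 (SE 0.10), and Mmp14 and Adamts1 were lower too (-0.57 and -0.52). Of 25 contractile genes of myofibroblasts, 1 was higher and 2 lower, with a median of -0.01. Acta2, smooth muscle actin and the usual myofibroblast marker, lay between 12 and 12.17 on all 6 arrays (difference -0.07, SE 0.11, not called). Itga11, a collagen-binding integrin subunit, rose by 0.90 (SE 0.12), and Tpm1 and Flna were lower (-0.57 and -0.36).

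**Figure D2:**
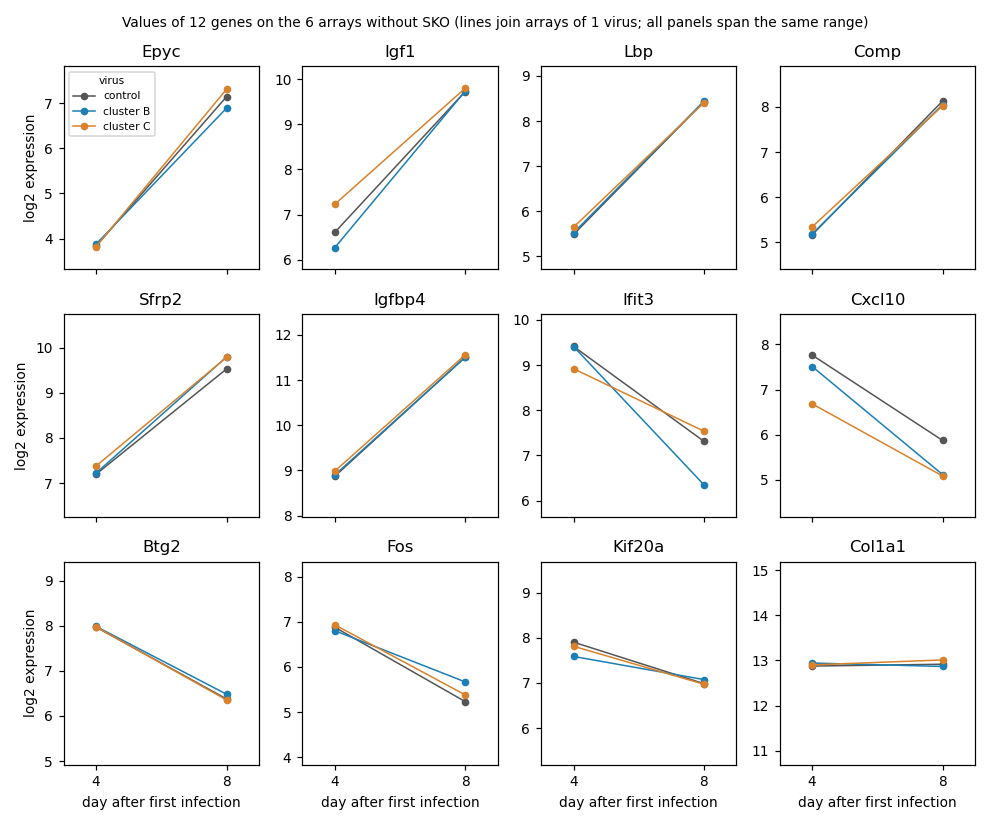
Log2 expression of 12 genes on the 6 arrays without SKO, with day after the first infection on the horizontal axis and a line for each virus; all panels span the same number of log2 units. Epyc, Igf1, Lbp, Comp, Sfrp2 and Igfbp4 rose in all 3 pairs, Ifit3, Cxcl10, Btg2, Fos and Kif20a fell, and Col1a1 lay between 12.87 and 13.01.

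Insulin-like growth factors are held outside cells by binding proteins, released from them by pappalysin proteases, and read by the receptor Igf1r, while Igf2r removes Igf2. The ligand Igf1 was at 6.61, 6.27 and 7.23 on day 4 and at 9.73, 9.74 and 9.80 on day 8, so the arrays, spread over about a log2 unit at day 4, came to nearly the same value. The difference was 3.05 (SE 0.15, adjusted p = 1.79e-05), or 8.30-fold. Igf2, imprinted and already abundant, was at 10.24, 10.48 and 10.62 and then at 10.84, 10.75 and 10.80; the days did not overlap, but 0.35 (SE 0.12, adjusted p = 0.102) was not called. Of 7 measured binding proteins 4 were called, all higher. Igfbp4 went from 8.87, 8.90 and 8.98 to 11.51, 11.50 and 11.56, a rise of 2.61 (SE 0.11, adjusted p = 9.85e-06). Igfbp2 rose by 2.16 (SE 0.14), Igfbp3 by 1.56 (SE 0.11) and Igfbp5 by 0.90. Igfbp7, Igfbp1 and Igfbp6, at 0.28, 0.17 and -0.11, were not called. Pappa2, a protease that cleaves binding proteins, rose by 1.73 (SE 0.18). Both receptors were lower. Igf2r was at 9.74, 9.83 and 9.78 on day 4 and at 8.56, 8.45 and 8.72 on day 8, a difference of -1.21 (SE 0.10, adjusted p = 0.000284). Igf1r fell by 0.43 (SE 0.09, adjusted p = 0.0263), a call lost whichever pair was left out. In all, 7 of 17 measured genes of the axis were higher and 2 lower, and 6 were higher and 1 lower whichever pair was left out.

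Wnt signalling is set by secreted antagonists of the Sfrp and Dkk families, by R-spondins and their Lgr receptors, and by feedback inhibitors. Of 32 measured Wnt genes, 14 were higher and 0 lower (17 and 1 at an unadjusted limma p under 0.05), with a median of 0.37. The secreted antagonist Sfrp2 went from 7.20, 7.22 and 7.38 to 9.53, 9.79 and 9.78, a rise of 2.44 (SE 0.12, adjusted p = 1.66e-05), and Sfrp1 from 8.06, 8.19 and 8.45 to 10.03, 10.19 and 10.51 (2.01, SE 0.10). Lgr5, a receptor for R-spondins, rose from 5.62, 5.58 and 5.98 to 7.47, 7.65 and 7.87 (1.94, SE 0.13). All day 8 values of these 3 genes exceeded all day 4 values by more than a log2 unit. Among feedback inhibitors, Nkd1, Nkd2 and Notum rose by 0.96, 0.87 and 0.73, and among ligands Wnt2, Wnt5b and Wnt5a by 0.61, 0.59 and 0.44. Dkk3, Ror2 and Fzd2 had the lowest differences (-0.28, -0.15 and -0.13) and were not called. The list gave 10, 11 and 10 higher genes without the control, cluster B and cluster C pair.

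**Figure D3:**
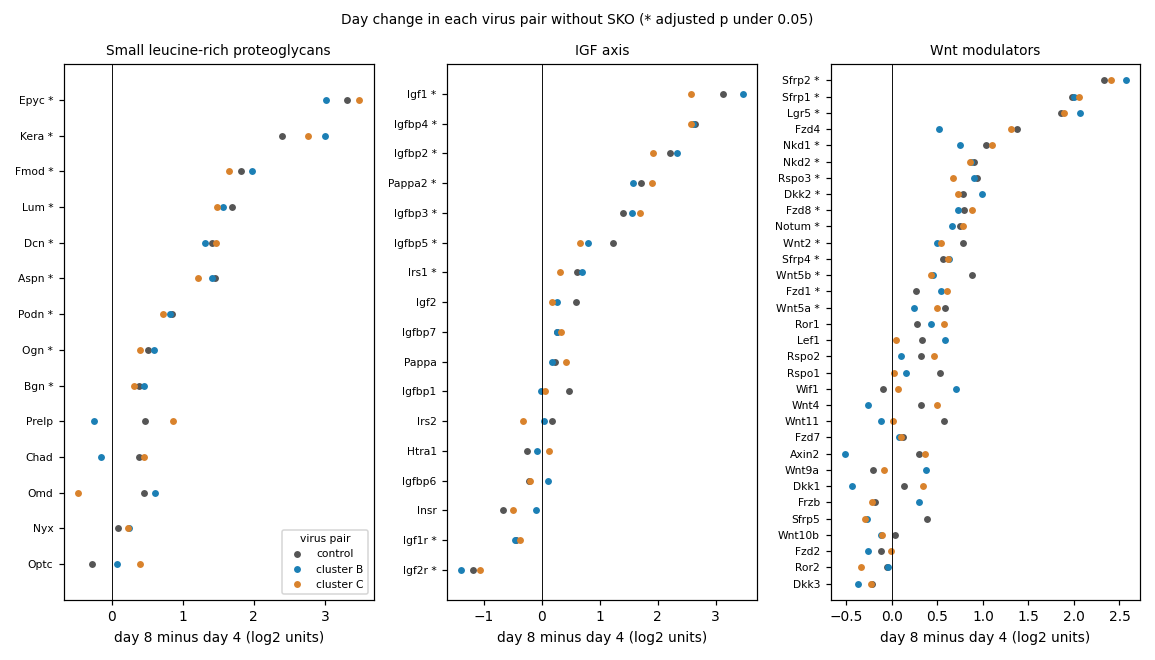
Day change in each of the 3 virus pairs (day 8 minus day 4, log2 units; colours give the virus) for the measured small leucine-rich proteoglycans, the insulin-like growth factor axis and Wnt modulators, ordered by their mean, with an asterisk where the adjusted p was under 0.05. For the genes at the top, such as Epyc, Igf1 and Sfrp2, all 3 pairs lie above 2 log2 units; Igf2r lies below -1 in all 3 pairs.

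The Id genes, direct targets of BMP signalling whose products block basic helix-loop-helix factors, rose as a family. Id2 went from 6.45, 6.34 and 7.19 to 8.27, 7.41 and 8.24 (1.31, SE 0.17), with the cluster B array lowest on both days. Id3 rose by 1.13 (SE 0.13), Id1 by 1.02 (SE 0.10) and Id4 by 0.80. The inhibitory Smad6 and Smad7 rose by 0.83 and 0.46, and Fst, follistatin, a secreted antagonist of activins, by 1.08 (SE 0.10). The ligand Tgfb2 fell by 0.77 (SE 0.11) and the repressor Tgif1 fell by 0.57. Of 44 measured genes of the TGF-beta and BMP pathway, 10 were higher and 3 lower, with a median of 0.17, and 7 or 8 were higher without 1 pair. Of 20 CCN genes and Yap targets, 6 were higher and 2 lower, and without 1 pair between 1 and 3 were higher. The rise was led by Ccn3, a matricellular protein, which went from 8.08, 7.86 and 8.47 to 10.69, 10.70 and 10.88 (2.62, SE 0.11, adjusted p = 9.85e-06). Ccn5 and Ccn2 rose by 0.77 and 0.63, and Tead1, a partner of Yap, fell by 0.58.

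Ligands and receptors of other growth factors were split. Of 36 measured, 12 were higher and 4 lower, and without 1 pair between 4 and 6 were higher and 2 lower. Pdgfrl, a secreted receptor-like protein, rose by 1.61 (SE 0.10), Fgf18 by 1.01 (SE 0.13) and Angpt1, the activating ligand of the receptor Tek, by 0.80. Its antagonist Angpt2 fell by 0.81 (SE 0.11). Spry2 and Dusp6, feedback inhibitors of the receptor tyrosine kinase and ERK pathway, were lower (-0.83 and -0.56).

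Many complement and acute phase genes encode secreted proteins of innate defence. They were read in a list that also held the C1q-related genes C1qtnf1, C1qtnf3 and C1qtnf7. Of 24 measured genes of this list, 12 were higher and 0 lower (14 and 1 at an unadjusted limma p under 0.05), with a median of 0.58. Lbp, the lipopolysaccharide binding protein, went from 5.49, 5.52 and 5.65 to 8.43, 8.44 and 8.40, a rise of 2.87 (SE 0.11, adjusted p = 9.85e-06) or 7.32-fold, with nearly equal values within each day. C1qtnf3, a C1q-related adipokine, rose by 1.76 (SE 0.13). Cfb, factor B of the alternative pathway, went from 5.12, 5.88 and 5.75 to 7.15, 6.88 and 7.06 (1.45, SE 0.20). C4b, Hp and Ptx3 rose by 1.37, 1.32 and 1.23. The list gave 10, 11 and 11 higher genes without the control, cluster B and cluster C pair. Ceruloplasmin, encoded by Cp, had the lowest difference, -0.35, and was not called.

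A list of 16 genes held responders to LIF and Stat3 together with parts of the pathway, among them Stat3, Lif, Lifr and Il6st. Of these 16, 7 were higher and 0 lower (8 and 1 at an unadjusted limma p under 0.05), with a median of 0.36. With dim genes left out, 5 were higher and 1 lower of 11, and the median was 0.03. Whichever pair was left out, 1 was higher. That gene was Il33, an alarmin cytokine, which went from 4.54, 4.39 and 4.48 to 5.90, 5.87 and 5.69 (1.35, SE 0.11). Il6 was below the lower quartile on day 4, at 2.52, 2.51 and 2.53, and at 3.18, 3.90 and 3.33 on day 8 (0.95, SE 0.21, adjusted p = 0.0251), and Socs3, the feedback inhibitor of the pathway, rose by 0.56. Stat3 itself and its receptor subunit Il6st had differences of -0.04 and -0.30 that were not called. Chemokines and cytokines had 6 higher and 1 lower of 29, and without the control, cluster B and cluster C pair 4, 3 and 4 were higher. Cxcl14 rose by 1.75 (SE 0.13) and Tnfsf11, the osteoclast factor Rankl, by 1.43 (SE 0.11). The gene that fell, Cxcl10, is an interferon-induced chemokine. It was at 7.76, 7.51 and 6.68 on day 4 and at 5.87, 5.12 and 5.09 on day 8, a difference of -1.96 (SE 0.16, adjusted p = 0.000234), or 3.89-fold lower.

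Interferon-stimulated genes had the lowest median of the 45 lists. Of 37 measured, 18 were lower at day 8 and 36 were below 0, with a median of -0.71, against 4.63% of all genes called lower. Ifit3, an antiviral protein with tetratricopeptide repeats, was at 9.41, 9.41 and 8.92 on day 4 and at 7.31, 6.35 and 7.54 on day 8. The difference of -2.18 (SE 0.37, adjusted p = 0.00986) was the largest fall named, and its size differed between the pairs: the cluster B array was lowest at day 8. Ifit3b fell by 2.01 (SE 0.24); it is a near-identical copy of Ifit3, so the split of signal between them is uncertain. Ifit1, which binds foreign RNA ends, was at 9.31, 8.73 and 9.02 and then at 7.43, 7.20 and 7.98 (-1.49, SE 0.32, adjusted p = 0.0231). Mx2, an antiviral dynamin-like GTPase, went from 5.96, 5.85 and 6.04 to 4.38, 4.05 and 4.40 (-1.67, SE 0.16). Rsad2, which encodes viperin, went from 6.80, 5.79 and 6.03 to 4.67, 4.57 and 4.68 (-1.57, SE 0.19). The days did not overlap for any of these. Usp18, which limits interferon signalling, fell by 1.32 (SE 0.33) and Ddx60, a helicase, fell by 1.47 (SE 0.29). The cytosolic RNA sensors Ifih1 and Ddx58 were lower (-1.22, SE 0.22, and -0.93, SE 0.15), as were Stat2 and Irf9, which carry the interferon signal to DNA (-1.15, SE 0.20, and -0.59, SE 0.14). Oas1a and Irf1 had the smallest differences below 0, -0.10 and -0.11.

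The list's median was -0.70 in the control pair, -0.99 in the cluster B pair and -0.61 in the cluster C pair, so the list was lower in each. Without the control, cluster B and cluster C pair, 6, 5 and 10 genes were lower. Ifit1, Ddx60 and Usp18 lost their calls whichever pair was left out (adjusted p between 0.0556 and 0.185), and Ifit3 without the control or the cluster B pair (0.0551 and 0.0592). Ifi27 was the only member that rose. This mitochondrial protein's gene went from 6.79, 6.89 and 6.98 to 8.18, 7.89 and 8.06 (1.15, SE 0.12). Antigen presentation genes, many of which also respond to interferon, had 2 higher and 2 lower of 19. With the mean over probe sets, 1 was higher. The class I genes H2-K1, H2-D1, H2-Q6, H2-Q7, H2-T22 and H2-T23 were not analysed, and the 19 included class II genes such as H2-Ab1 and H2-Aa. The immunity-related GTPase Irgm1 and the guanylate-binding protein Gbp9, named for their size of change, were lower (-1.38, SE 0.21, and -1.30, SE 0.22); without the cluster B pair, Gbp9 had an adjusted p of 0.0552.

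Promoters of these genes are shown because interferon acts through a short element bound by factors such as Irf9. RefSeq promoter windows of GRCm38.p6, from 250 bases before to 50 after the start, were at hand for 15614 of the genes tested. They were searched on both strands for GAAA, any 2 bases, then GAAA, a core of that element. It was found in 8 of 14 fallen list members with a window (57.1%), against 3.89% of all genes, 5.14% of the lower and 4.03% of the higher genes. Of all measured members of the list, called or not, 13 of 27 with a window held it (48.1%). The 200 bases before the start are given 5′ to 3′ along the gene's strand, with the matches (or their reverse complement) in capitals: Ifit1 (chr19:34640689-34640888, plus strand), Ifit3 (chr19:34583329-34583528, plus), Rsad2 (chr12:26456453-26456652, minus) and Ddx60 (chr8:61927887-61928086, plus).
Ifit1: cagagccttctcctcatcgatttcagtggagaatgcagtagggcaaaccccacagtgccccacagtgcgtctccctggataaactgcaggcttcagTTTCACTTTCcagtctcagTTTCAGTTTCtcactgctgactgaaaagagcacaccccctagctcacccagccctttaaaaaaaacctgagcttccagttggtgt
Ifit3: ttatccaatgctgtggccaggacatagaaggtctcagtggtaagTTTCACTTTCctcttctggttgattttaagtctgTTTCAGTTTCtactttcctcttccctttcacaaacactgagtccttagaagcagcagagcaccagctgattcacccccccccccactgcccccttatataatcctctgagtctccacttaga
Rsad2: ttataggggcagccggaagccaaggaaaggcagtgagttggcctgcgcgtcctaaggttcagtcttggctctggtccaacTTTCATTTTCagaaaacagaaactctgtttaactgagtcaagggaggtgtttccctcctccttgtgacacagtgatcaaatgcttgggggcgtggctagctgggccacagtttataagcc
Ddx60: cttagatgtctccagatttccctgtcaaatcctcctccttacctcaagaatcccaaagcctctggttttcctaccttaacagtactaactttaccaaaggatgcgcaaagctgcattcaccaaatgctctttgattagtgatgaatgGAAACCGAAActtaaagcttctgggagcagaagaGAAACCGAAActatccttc
Ifit1 and Ifit3 each held 2 matches within the printed stretch, with the same letters in both genes, Ddx60 held 2 and Rsad2 held 1. A match is a description of the letters and not evidence of binding.

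Genes of G2 phase and mitosis were mostly lower at day 8, by modest amounts. Of 45 measured, 14 were lower and 0 higher (29 and 0 at an unadjusted limma p under 0.05), 41 were below 0, and the median was -0.41. Kif20a, a kinesin of cytokinesis, was at 7.90, 7.59 and 7.81 on day 4 and at 6.98, 7.07 and 6.97 on day 8 (-0.76, SE 0.15, adjusted p = 0.0185). Kif2c, a microtubule-depolymerising kinesin, fell by 0.74 (SE 0.13) and Anln, anillin, fell by 0.72. Cdc20, the activator of the anaphase-promoting complex, went from 7.35, 7.28 and 7.25 to 6.71, 6.88 and 6.58 (-0.57, SE 0.10). The kinases Aurka and Plk1 were lower (-0.56 and -0.49). The days did not overlap for these genes. Mki67, the usual proliferation marker, was at 7.46, 7.39 and 7.58 and then at 6.82, 7.15 and 7.22, and its difference of -0.41 (SE 0.17, adjusted p = 0.177) was not called. Cdk1, Nusap1 and Ube2c had the highest differences, 0.12, 0.10 and 0.00, and were not called either. The median was -0.54 in the control pair, -0.25 in the cluster B pair and -0.44 in the cluster C pair. These calls lay close to the threshold: without the control, cluster B and cluster C pair, 0, 5 and 1 of the 45 genes were lower, while the median stayed between -0.35 and -0.47.

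Genes of the G1 to S transition and of DNA replication were rarely called. Of 42 measured, 1 was higher and 0 lower (4 and 1 at an unadjusted limma p under 0.05), with a median of 0.01. The gene called was Rrm2, a ribonucleotide reductase subunit, which went from 8.12, 8.18 and 7.98 to 8.47, 8.53 and 8.37 (0.36, SE 0.09, adjusted p = 0.0469), a call lost whichever pair was left out and with arrays set to equal medians. Pcna, the replication clamp, lay between 8.59 and 8.84 on day 4 and between 8.95 and 9.03 on day 8 (0.25, SE 0.12, not called). Replication-dependent histone genes had 3 higher and 2 lower of 21, and their median of 0.12 changed sign without the cluster B or the cluster C pair (-0.01 and -0.02).

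Cell cycle promoters are shown because many G2 and mitosis genes carry CCAAT boxes and a cell cycle homology region, bound by the factor NF-Y and by repressor or activator complexes. The letters CCAAT and TTTGAA were both found, on either strand and anywhere in the window, in 10 of 12 fallen genes of the list with a window (83.3%) and in 23 of 35 of all its measured genes (65.7%), against 6.89% of all genes. CCAAT was found in 41.7% of all genes and TTTGAA in 17.3%. Within the list, TTTGAA was found in all 12 of the fallen members and in 26 of 35 of all measured genes with a window (74.3%). Genes of the list that were not called held both as well. The E2F letters TTTGGCGC or TTTCCCGC were found in 12 of 36 genes of the G1 to S list (33.3%), against 2.56% of all genes. The stretches before the start are Cdc20 (chr4:118437344-118437543, minus strand), Ccnb2 (chr9:70421555-70421754, minus) and Kif11 (chr19:37376182-37376381, plus), with both motifs or their reverse complements in capitals.
Cdc20: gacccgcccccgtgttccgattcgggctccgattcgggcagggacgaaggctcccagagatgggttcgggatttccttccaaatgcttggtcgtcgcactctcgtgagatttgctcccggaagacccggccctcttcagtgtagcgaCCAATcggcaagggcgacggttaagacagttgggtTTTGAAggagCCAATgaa
Ccnb2: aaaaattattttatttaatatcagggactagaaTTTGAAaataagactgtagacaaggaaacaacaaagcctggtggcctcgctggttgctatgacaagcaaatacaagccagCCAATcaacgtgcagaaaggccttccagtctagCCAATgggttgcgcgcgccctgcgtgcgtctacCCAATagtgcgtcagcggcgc
Kif11: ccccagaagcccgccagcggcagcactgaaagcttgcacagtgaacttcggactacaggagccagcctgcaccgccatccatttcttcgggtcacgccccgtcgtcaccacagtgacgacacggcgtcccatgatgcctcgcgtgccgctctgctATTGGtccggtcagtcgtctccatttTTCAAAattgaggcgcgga
Ccnb2 (cyclin B2) fell by 0.51 and Kif11 (a spindle kinesin) fell by 0.60 in the 3 pairs together.

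**Figure D4:**
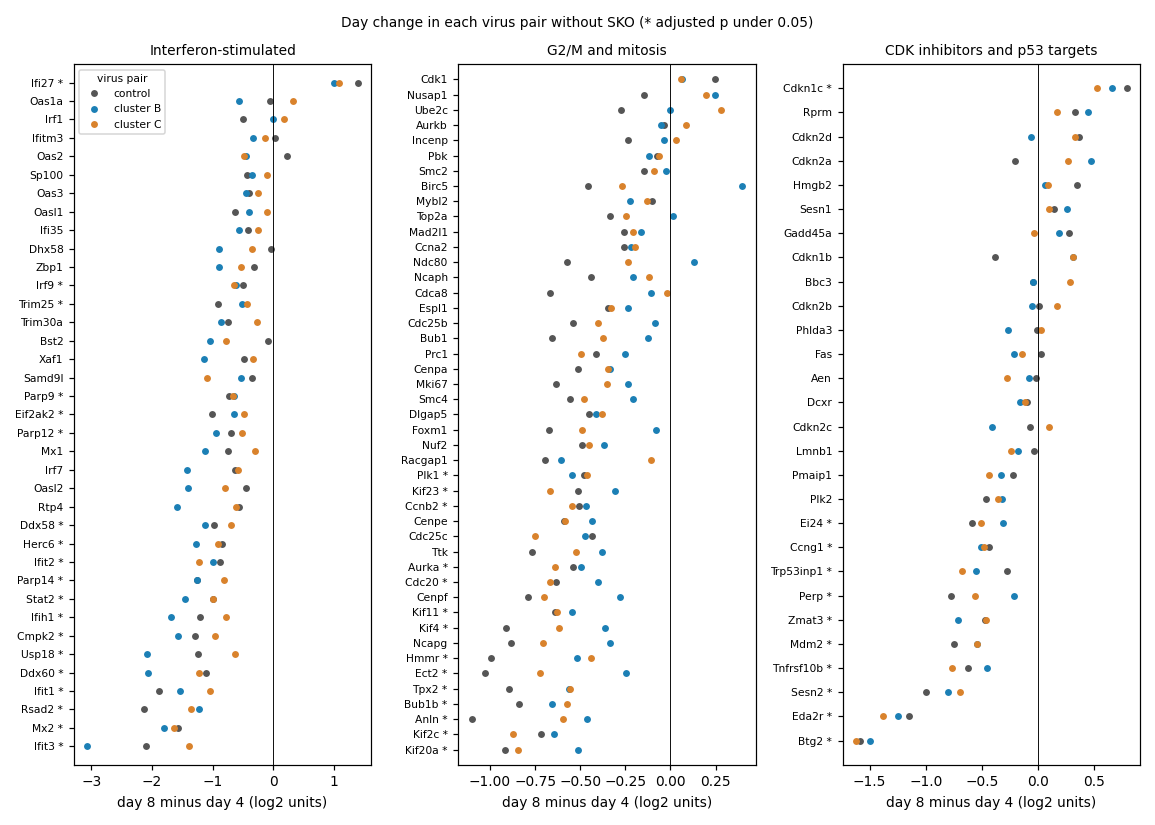
Day change in each of the 3 virus pairs (day 8 minus day 4, log2 units; colours give the virus) for interferon-stimulated genes, G2 and mitosis genes and the list of CDK inhibitors and p53 targets, with an asterisk where the adjusted p was under 0.05. Ifit3 lies at -2.10, -3.06 and -1.38 in the control, cluster B and cluster C pair, whereas Btg2 lies at -1.59, -1.5 and -1.62.

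Targets of p53 are induced by DNA damage and other stress and include brakes on division. They were read in a mixed list that also held CDK inhibitors and the genes Lmnb1 and Hmgb2. Of the 28 measured genes of this list, 10 were lower and 1 higher, so the count is not one of p53 targets alone. Btg2, an antiproliferative immediate early gene and p53 target, was at 7.97, 7.98 and 7.97 on day 4 and at 6.38, 6.48 and 6.36 on day 8. The difference of -1.57 (SE 0.09, adjusted p = 4.57e-05), or 2.97-fold lower, was nearly the same in each pair. Eda2r, a death receptor of the tumour necrosis factor family, went from 7.06, 7.11 and 7.36 to 5.91, 5.87 and 5.98 (-1.26, SE 0.12). Sesn2, a stress-induced inhibitor of the kinase mTORC1, fell by 0.83. Mdm2, the ubiquitin ligase that p53 induces against itself, went from 8.31, 8.23 and 8.42 to 7.56, 7.69 and 7.87 (-0.61, SE 0.10, adjusted p = 0.00758). The gene that rose was the imprinted CDK inhibitor Cdkn1c, by 0.66 (SE 0.10). Cdkn2a, whose products p16 and p19 mark senescence, was at 7.04, 6.56 and 6.62 and then at 6.83, 7.03 and 6.89, overlapping between days (0.17, SE 0.13, not called). Without the control, cluster B and cluster C pair, 4, 6 and 4 genes of the list were lower. Cdkn1a, Trp53 and Bax were not analysed here. Of 25 genes known from growth-arrested fibroblasts, 4 were higher and 2 lower, and without the control, cluster B and cluster C pair 1, 2 and 1 were higher and 0, 1 and 0 lower. The largest rise was that of Gas6, a ligand of TAM receptor kinases, which went from 8.18, 8.11 and 8.13 to 9.47, 9.51 and 9.64 (1.40, SE 0.10).

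Immediate early genes, switched on within minutes of serum stimulation or handling, had 7 lower and 3 higher of 25, with a median of 0.00. Dusp1, a phosphatase of MAP kinases, was at 8.65, 8.64 and 8.75 on day 4 and at 6.91, 7.25 and 7.09 on day 8 (-1.60, SE 0.11, adjusted p = 7.22e-05). Fos went from 6.88, 6.80 and 6.93 to 5.23, 5.67 and 5.38 (-1.44, SE 0.13) and Egr1 from 7.86, 7.53 and 7.60 to 6.47, 6.61 and 6.58 (-1.11, SE 0.12). All day 8 values of these 3 lay below all day 4 values. Klf10, an early gene induced by TGF-beta, rose by 1.51 (SE 0.20). Myc rose from 6.62, 6.81 and 6.93 to 7.35, 7.62 and 7.34 (0.65, SE 0.11, adjusted p = 0.0104), a call lost without the control or the cluster B pair. The labels do not give how long cells were handled before lysis.

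Lysosomal and lipid synthesis genes had more lower than higher members. Of 29 lysosome and autophagy genes, 7 were lower and 1 higher, with a median of -0.27. Gpnmb, a transmembrane glycoprotein of lysosomes and melanosomes, went from 6.77, 6.87 and 6.62 to 5.11, 4.86 and 4.99 (-1.77, SE 0.11, adjusted p = 5.42e-05). Tpp1, a lysosomal peptidase, fell by 1.08 (SE 0.11), and Npc1, the cholesterol exporter of lysosomes, fell by 0.60. Of 30 genes of cholesterol and fatty acid synthesis, 7 were lower and 1 higher. The desaturases Fads2 and Scd1 were lower (-0.70 and -0.64). Without the control, cluster B and cluster C pair, 2, 4 and 2 lysosomal and 0, 1 and 2 lipid synthesis genes were lower.

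Genes of glycolysis and of the hypoxia response had 11 higher and 2 lower of 32, with a median of 0.23. Bnip3, a hypoxia-induced mitophagy receptor, rose from 7.32, 6.87 and 7.02 to 8.41, 8.45 and 8.20 (1.28, SE 0.12). Car9, a carbonic anhydrase used as a hypoxia marker, rose from 3.66, 3.80 and 3.89, near the lower quartile, to 5.43, 4.66 and 4.72 (1.15, SE 0.18). Pdk1, which limits pyruvate entry into mitochondria, rose by 1.04 (SE 0.20). Eno2 and Adm, members of the same list, were lower (-0.61 and -0.62), and Pkm had a difference of -0.36 that was not called. Whichever pair was left out, 4 genes were higher. Genes of oxidative phosphorylation had 2 higher and 0 lower of 27 (4 and 2 at an unadjusted limma p under 0.05), and ribosome biogenesis genes 1 and 1 of 29. Serine synthesis and Atf4 target genes had 4 lower of 33, among them Phgdh and Psat1, enzymes of serine synthesis, which were lower (-0.56 and -0.48). Antioxidant genes had 5 higher of 27, among them the metallothionein Mt2 (0.70), chaperone and proteasome genes 1 higher and 2 lower of 23, genes of the unfolded protein response 1 higher of 22, and clock genes 3 higher of 15, among them Nr1d1 and Per1 (0.70 and 0.66). Higher members made up 3.4% of ribosome biogenesis, 4.3% of chaperone and proteasome and 4.5% of unfolded protein response genes, against 4.05% of all genes. The antioxidant count was 2, 0 and 1 and the clock count 1, 0 and 0 without the control, cluster B and cluster C pair. In the same order, 1, 1 and 2 serine synthesis and Atf4 target genes were lower. Whichever pair was left out, 0 genes of oxidative phosphorylation were higher.

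Of 22 cartilage and bone genes, 10 were higher and 0 lower (12 and 1 at an unadjusted limma p under 0.05), with a median of 0.44, and 7, 5 and 6 were higher without the control, cluster B and cluster C pair. Ibsp, bone sialoprotein, went from 5.18, 4.77 and 4.80 to 6.36, 6.85 and 6.39 (1.61, SE 0.15). Alpl, the tissue-nonspecific alkaline phosphatase of mineralising cells, rose by 1.17 (SE 0.12) and Phex, an endopeptidase of bone, by 1.13 (SE 0.11). The transcription factors Sox9 of cartilage and Sp7 of osteoblasts rose by 0.86 and 0.83. Col2a1, the main collagen of cartilage, had a difference of -0.31 that was not called. Adipocyte genes had 7 higher and 2 lower of 27, and 3 or 4 were higher without 1 pair. Lpl, lipoprotein lipase, went from 5.17, 5.23 and 5.50 to 6.83, 7.02 and 7.13 (1.69, SE 0.10), and Dlk1, which is expressed in precursors and holds back adipocyte formation, from 8.40, 8.44 and 8.52 to 9.95, 10.17 and 9.89 (1.55, SE 0.13). Fabp4, a fatty acid carrier, rose by 0.92 (SE 0.12) from values between 4.14 and 4.42. Adipoq, made by mature adipocytes, was below the lower quartile on all 6 arrays.

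Position and imprinting were looked at with 2 further lists, with no test of a list as a set. Of all genes, 4.05% were higher and 4.63% lower. Of 37 Hox genes, which keep a record of body position, 5 were lower and 1 higher. Hoxa5 went from 6.13, 6.58 and 6.52 to 5.56, 5.41 and 5.73 (-0.85, SE 0.15), and Hoxc6 and Hoxd10 were lower (-0.73 and -0.72). Without the control, cluster B and cluster C pair, 3, 2 and 1 were lower. Of 19 imprinted genes, 4 were higher and 3 lower. Mest rose by 0.90 (SE 0.12) and Plagl1, a zinc finger factor, by 0.78 (SE 0.12), beside Dlk1 and Cdkn1c, while Igf2r, Rian and Impact fell.

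The fibroblast label held on all arrays. All 11 fibroblast markers lay at 8.24 or above, their mean level was between 10.31 and 10.37 on day 4 and between 10.59 and 10.66 on day 8, and 2 rose (Lum and Dcn). Snai1, a mesenchymal transcription factor, rose by 1.20 (SE 0.10). The 6 pluripotency markers had mean levels of 3.91 to 4.06 on day 4 and 3.84 to 3.99 on day 8, with none called. Of 25 measured pluripotency genes that are not part of SKO, 1 was higher, Gdf3, by 0.46. That was 4.0% of the list, against 4.05% of all genes, and 0 were higher whichever pair was left out. Pou5f1 lay between 3.35 and 4.56, Sox2 between 4.55 and 5.18 and Klf4 between 6.92 and 7.16 on the 6 arrays. Their differences of -0.16, 0.27 and -0.02 were not called.

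Markers of other cell types had mean levels below that of the fibroblast markers on all 6 arrays, and some of the macrophage, adipocyte and cartilage markers were called higher. The 7 macrophage markers had a mean level between 4.80 and 5.05 on day 4 and between 5.28 and 5.49 on day 8, with a median difference of 0.53, and Csf1r and C1qa were called higher. Of the longer list of 28 macrophage and leukocyte genes, 7 were higher and 0 lower (16 and 0 at an unadjusted limma p under 0.05), and its mean level went from between 4.49 and 4.59 to between 4.83 and 5.0. Lyz2, a lysozyme, went from 6.85, 7.03 and 7.27 to 7.85, 8.04 and 7.80 (0.84, SE 0.13). Mrc1, the macrophage mannose receptor, rose by 1.10 (SE 0.20) and C1qc by 1.01 (SE 0.23); both calls were lost without the control or the cluster B pair. Ptprc, the pan-leukocyte antigen, was at 3.84, 4.14 and 4.13 and then at 4.41, 4.42 and 4.25 (0.32, SE 0.12, not called), and Cd68 overlapped between days. Without the control, cluster B and cluster C pair, 3, 2 and 8 genes of the list were higher. These markers moved the same way as the complement and cytokine genes, and their part in those results was not tested. Endothelial markers had mean levels of 3.69 to 3.94 and then 3.67 to 3.79, with none of 5 called. Of the longer list of 22 endothelial and pericyte genes, 5 were higher and 0 lower (8 and 1 at an unadjusted limma p under 0.05), among them the endothelial receptor Tek (0.70), the junction gene Cldn5 (0.57) and the transcription factor Erg (0.53). In that list, 1, 0 and 0 genes were higher without the control, cluster B and cluster C pair. Skeletal muscle markers had mean levels of 5.44 to 5.47 and then 5.59 to 5.64, with none called. Adipocyte markers went from 4.19 to 4.29 to between 4.65 and 4.85 with 2 called, and cartilage markers from 5.98 to 6.13 to between 6.34 and 6.36 with 2 called. The Y-linked gene Uty went from 5.73, 5.96 and 6.43 to 5.23, 5.25 and 5.32 (-0.78, SE 0.16, adjusted p = 0.0207), a call lost without the cluster B or the cluster C pair; Kdm5d and Eif2s3y had differences of -0.54 and -0.06 that were not called, and Zfy1, at mean levels of 1.87 and 2.39 below the lower quartile, was called higher (0.52). The make-up of the cell pools was not tested.

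Whether these changes belonged to culture without the factors was asked by comparing the day change of the arm with SKO with that of the arm without, through the interaction term of the same fit. This difference cannot be told apart from a difference between the 2 infection groups of the labels. The day change differed between the arms in 592 genes (2.97%), 392 with a higher value with SKO (1.97%) and 200 with a lower one (1.0%). Of the 807 genes that were higher at day 8 without SKO, 158 differed between arms, in 144 of which the rise was smaller or turned with SKO, and 235 also passed as higher with SKO, where 5.24% of all genes did. Of the 923 lower genes, 122 differed, in 121 of which the fall was smaller or turned, and 232 also passed as lower with SKO, where 3.66% of all genes did. Because these genes were chosen by their change without SKO, and the same values enter the difference, a smaller change with SKO is favoured by the choice itself. Across the called genes the median change with SKO was 0.22 for the higher and -0.22 for the lower ones.

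The genes named for the largest differences with a lower value with SKO were Epyc, Kera, Akr1c18, Ccn3 and Dpt. Epyc changed by 0.00 with SKO and 3.27 without (difference -3.27, adjusted p = 0.00046). Kera changed by -0.27 with SKO (difference -2.99), Dpt by -0.14 (difference -2.34) and Ccn3 by 0.22 (difference -2.40), none of them called there. Of 14 small leucine-rich proteoglycans 5 differed, and of the 17 genes of the insulin-like growth factor axis 10 did, 7 with a lower and 3 with a higher value with SKO. Igf1 rose in both arms, by 3.05 without and 1.16 with SKO (difference -1.89, adjusted p = 0.0031). Igf2 went in opposite directions, at 0.35 without SKO (not called) and -0.63 with it (difference -0.98, adjusted p = 0.0182). Akr1c18, a hydroxysteroid dehydrogenase, fell by 3.06 with SKO and fell by 0.48 without, where the call was lost whichever pair was left out.

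Interferon-stimulated genes had a median change of 0.08 with SKO, and 8 of the 37 differed between the arms, all with a higher value with SKO. Rsad2 changed by 0.00 with SKO (difference 1.57, adjusted p = 0.0205) and Mx2 by -0.18 (difference 1.5, adjusted p = 0.0128). For Ifit3 and Ifit1 the differences of 1.69 and 1.57 did not pass (adjusted p = 0.137 and 0.106). Btg2 changed by -0.01 with SKO (difference 1.56, adjusted p = 0.00075). Of 45 G2 and mitosis genes, 0 differed between the arms by limma, and 9 did at an unadjusted p under 0.05. Over all 19938 genes tested, 3459 differed between the arms at that unadjusted threshold. The median of the G2 and mitosis list was -0.65 with SKO and -0.41 without, and for Kif20a the changes were -0.69 and -0.76. In the G1 to S list, the median was -0.47 with SKO and 0.01 without, and 3 of 42 differed, among them Rrm2 (difference -0.92, adjusted p = 0.00977). At an unadjusted p under 0.05 in the day change without SKO, 4920 genes passed (24.7%).

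The genes named for the largest differences with a higher value with SKO were Enpp3, Angptl7, Itga3, Lama5 and Krt7, all of which fell without SKO. Enpp3, an ectonucleotidase, fell from 6.14, 5.95 and 5.69 to 4.71, 4.66 and 4.92 without SKO (-1.17, SE 0.20) and rose by 2.40 with SKO, the largest difference among genes called in both tests (3.57, adjusted p = 0.00075). Angptl7, a secreted angiopoietin-like protein, went from 6.61, 6.58 and 6.31 to 5.07, 4.99 and 4.75 without SKO (-1.56, SE 0.10) and rose by 1.45 with it (difference 3.02, adjusted p = 0.000104). The integrin subunit Itga3 fell by 0.84 (SE 0.12) and the keratin Krt7 fell by 0.76 (SE 0.12) without SKO, against rises of 1.21 and 1.18 with SKO. Lama5, a laminin chain, fell by 0.84 without and rose by 1.19 with SKO. Of 34 epithelial genes, 3 were lower without SKO and 13 differed between the arms, all 13 with a higher value with SKO. Without the control or the cluster B pair, the fall of Enpp3 was not called.

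**Figure D5:**
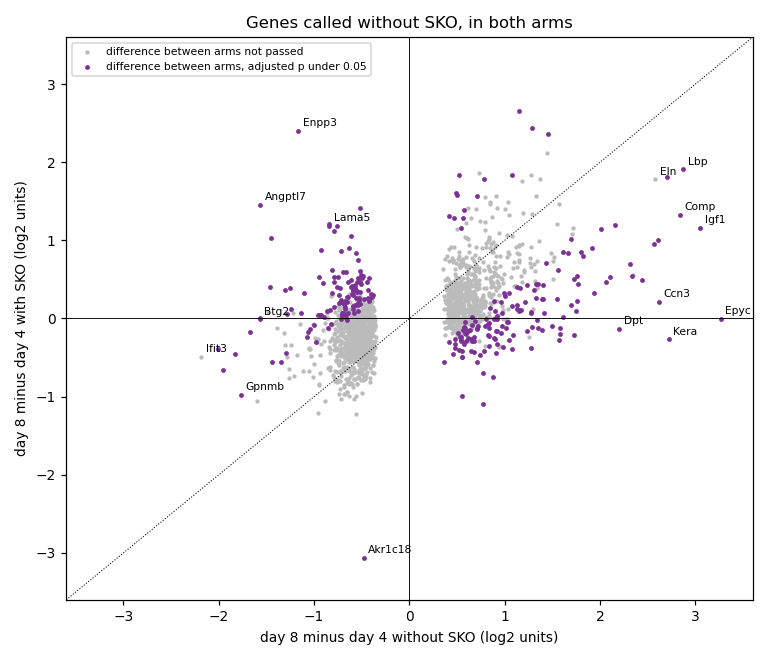
Day change with SKO (vertical) against day change without SKO (horizontal), both day 8 minus day 4 in log2 units, for the 1730 genes called without SKO; purple marks genes whose day change differed between the arms at an adjusted p under 0.05, and the dotted line marks equal change. Epyc, Kera, Dpt and Ccn3 lie at the right near 0 on the vertical axis, and Enpp3, Angptl7 and Lama5 lie at the upper left, lower without and higher with SKO.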

How the data were processed

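RNA of 12 fibroblast cultures (100 ng each, biotin label) was read on whole-transcript Affymetrix arrays (per the labels' protocols). The authors deposited log2 values of 28853 probe sets; per the submitters' processing notes, which give no roles, RMA and Partek are listed. That the deposited numbers are log2 follows from their range (0.916 to 14.034). The genome build is not given in the sources used here. If RMA was run with its usual quantile step, arrays share a distribution, which hides shifts common to most genes.

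Probe sets with 1 gene in the platform annotation (21789; 1621 had several and 5443 none) were used, and for 999 genes with several the brightest on average stood for the gene, giving 19938 genes. Entrez identifiers were compared with RefSeq, of which 21698 matched. One limma fit (limma 3.58.1, R 4.3.3) over the 12 arrays had 8 coefficients (SKO, day, virus, SKO by day, SKO by virus), with 4 residual and 4.94 prior degrees of freedom and a median residual SD of 0.151. The virus named in the titles pairs days. The number of arrays limits precision. Named genes were the 15 largest called rises and falls with the same sign in all 3 pairs (predicted genes, receptor families and small RNA genes left out), at most the 3 highest and the 3 lowest genes per list, up to 5 genes each way for the arms, and defining genes; other list members named were picked after their values were seen. The members, lists and rules were chosen with earlier results of these data known. The fit was checked on simulated data. Python 3.11.15, numpy 2.4.6, pandas 2.3.3 and matplotlib 3.10.9 made tables and figures. Alternatives were the arm alone, no pairing, shared virus terms, a trend with robust variance, quantile normalization, equal medians, dim genes left out, probe sets averaged or all kept, a required change of 1.5-fold, and omission of each pair.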

Additional observations from a re-analysis of the deposited data

Results flagged for a closer look

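Results are given here because the day change differed between the arms by the interaction test of limma (adjusted p under 0.05), which held for 592 genes; the value is the change with SKO minus that without, in log2 units. Among the 15 largest rises without SKO, the difference was -3.27 for Epyc, -2.99 for Kera, -2.40 for Ccn3, -2.34 for Dpt, -1.95 for Sfrp2, -1.89 for Igf1, -1.79 for Clec11a, -1.62 for Mfap4, -1.60 for Igfbp4, -1.60 for Ecrg4, -1.51 for Comp, -0.96 for Lbp and -0.89 for Egfl6. Eln and Bdkrb1 did not pass. Among the 15 largest falls it was 3.02 for Angptl7, 1.87 for Ddx60, 1.67 for Gbp9, 1.62 for Ifit3b, 1.57 for Rsad2, 1.56 for Btg2, 1.5 for Mx2, 1.31 for Cxcl10, 0.88 for Fos and 0.79 for Gpnmb. Other named genes were Enpp3 (3.57), Itga3 (2.05), Lama5 (2.03), Krt7 (1.94), Akr1c18 (-2.59), Igf2 (-0.98) and Myc (-0.91).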

How the results depend on the processing

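With no virus pairing (984 higher, 1274 lower), virus terms shared by both arms (867 and 1067), quantile normalization (870 and 952), equal array medians (697 and 1204), the mean over probe sets (807 and 914) and every probe set (862 and 970), counts of the day change without SKO stayed within 1.5 times of 807 and 923. With the 6 arrays fitted alone, on 2 residual degrees of freedom, 510 were higher and 493 lower. A mean-variance trend with robust variance gave 1220 and 1701, dim genes left out 1036 and 1695, and a required change of 1.5-fold gave 74 and 14. With 1 pair omitted there were 313 to 356 higher and 213 to 283 lower. For the difference between the arms, the trend gave 871 above and 475 below 0, dim genes left out 654 and 358, the required change 39 and 25, and leaving out 1 pair 138 to 179 and 92 to 115. Higher genes were 46.65% of the calls, 36.66% with equal medians and 37.93% with dim genes left out; the median of all genes stayed between -0.04 and 0.02. Of 169 called genes named by the rule, 95, 100 and 97 stayed called without the control, cluster B and cluster C pair, 137 with the arm alone and 48 at the required change. The histone list's median lay between -0.0190 (without the cluster C pair) and 0.155 (without the control pair), with -0.0052 without the cluster B pair, and Nlrc5 -0.0031 with the mean over probe sets; the cause was not tested. Values near the lower quartiles (3.54 to 3.68) limit what can be said of dim genes. Days were paired by virus throughout; the labels give no replicate numbers that could serve as a further block.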

Other observations

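Neighbours of Dlk1 were looked at after its rise had been seen. Dlk1 and Dio3 mark the ends of an imprinted domain in which the paternal copy makes these proteins and the maternal copy makes long noncoding RNAs and a large group of microRNAs. Dio3, a deiodinase that inactivates thyroid hormone, went from 4.27, 5.20 and 4.44 to 5.36, 5.39 and 5.66 (0.83, SE 0.18, adjusted p = 0.0257 in limma), while Rian, a host RNA of microRNAs and small nucleolar RNAs, went from 6.73, 6.98 and 7.04 to 6.16, 6.02 and 5.68 (-0.97, SE 0.14). Meg3 overlapped between days (-0.02). Of 40 microRNA genes between the ends, 9 were lower and 0 higher (22.5%), 30 were below 0 and the median was -0.15. Elsewhere, 5 of 257 microRNA genes were lower (1.95%) and 6 higher, with a median of 0.05. Those elsewhere were dimmer, with a median day 4 level of 3.30 against 4.695 between the ends. On all 6 arrays, 119 of the 257 and 10 of the 40 lay below 3.68, the highest lower quartile. The part of signal level in these shares was not tested. The probe sets read the gene region and do not tell precursors from mature microRNAs. Mir377 went from 5.29, 5.09 and 5.39 to 3.22, 3.58 and 3.49 (-1.83, SE 0.12), and Mir380, Mir543, Mir300, Mir376b, Mir329, Mir539, Mir496a and Mir323 were lower (-0.86, -0.81, -0.73, -0.71, -0.69, -0.64, -0.57 and -0.44); Mir376b and Mir539 lay below the lower quartile on all 6 arrays, and the day 8 values of Mir377, Mir380 and Mir543 lay no higher than 3.68, the highest lower quartile of the 6 arrays. Mature sequences of the gene that fell most and of a neighbour, from RefSeq (GRCm38.p6), are shown 5′ to 3′ with the seed, bases 2 to 8, in capitals.
miR-377-5p: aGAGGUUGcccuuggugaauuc
miR-377-3p: aUCACACAaaggcaacuuuugu
miR-329-5p: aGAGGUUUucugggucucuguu
miR-329-3p: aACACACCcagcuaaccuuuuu
The 4 seeds differ.

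Interferon-related genes outside the list were also looked at after values had been seen. Rnf213 (-1.30), Gbp7 (-1.26), Pml (-1.05), Phf11d (-0.95), Ifi207 (-0.94), Helz2 (-0.83), Iigp1 (-0.79), Adar (-0.78), Dtx3l (-0.75) and Mov10 (-0.75) were called lower, whereas Gbp3 (-0.81) and Gbp4 (-0.38) were not called.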
